A study of Homo sapiens with 2 samples.

Results

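Pyroptosis and necroptosis are inflammatory forms of cell death in which proteins of the dying cell open its own membrane. In pyroptosis a sensor, often joined by the adaptor PYCARD (ASC), gathers caspase-1 into an inflammasome, and the caspase cuts interleukin precursors and a gasdermin whose freed end forms pores. In necroptosis the kinase RIPK1 pairs with RIPK3 through a shared interaction motif, and RIPK3 phosphorylates MLKL, which then breaks the plasma membrane. Both are best known from macrophages, other immune cells and barrier epithelia.

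The 10 genes described here were taken by name: the sensors NLRP3 and NLRP1, the adaptor PYCARD, the caspases CASP1 and CASP4, the gasdermins GSDMD and GSDME, and the necroptosis genes RIPK1, RIPK3 and MLKL. All 10 matched 1 Ensembl gene each, out of 60664 genes in the files, of which 19890 are protein-coding in GENCODE 29. Their RNA was measured by RNA-seq in 2 libraries of 1 group, untreated wild-type HEK293T cells, an established human line of embryonic kidney origin, transformed with adenovirus DNA and expressing SV40 large T antigen. The study is about R-loops, and no group with a death stimulus was analysed here. The cell line entry of replicate 2 reads HEK294T while its title reads HEK293T, and the title was followed. Values are given per library, and with either library alone the same number of the 10 genes, 3, passed the detection threshold below. Whether each library had its own culture is not stated in the labels, and the spread between replicates may be technical only.

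Replicate 1 held 18011638 assigned counts and replicate 2 held 18575058. Where a gene had 0 counts, up to 3 could have been missed, which is 0.167 CPM (counts relative to the library's total) in replicate 1 and 0.162 CPM in replicate 2. The detection threshold was 1 CPM, to be reached in both libraries. TPM, which corrects for exon length, was used to compare genes with each other, and ± gives the SD of the 2 libraries (n = 2). Intervals and floors cover counting error only. As background for the markers, 65.9% of protein-coding genes and 27.7% of all genes were detected. Of 7 genes known from HEK293 lines, 7 were detected, from IGF2BP1 at 9.05 ± 0.304 TPM to UCHL1 at 334 ± 5.81 TPM. Of 8 markers of monocytes and macrophages 0 were detected, their summed level was 1.11 CPM in replicate 1 and 1.45 CPM in replicate 2, and FCGR3A and CD163 had 0 counts in both.

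Of the 10 genes, 3 were detected, RIPK1, NLRP1 and GSDME, against 65.9% of protein-coding genes and 27.7% of all genes. The detection of NLRP1 is uncertain because it shares an exon with another gene, as described below. Another 3, NLRP3, CASP1 and RIPK3, had 0 counts in both libraries, as had 15.4% of protein-coding genes and 50.5% of all genes. The remaining 4, PYCARD, CASP4, GSDMD and MLKL, had 5 or fewer counts in each library. The 10 genes had a median of 0.0661 TPM, against 2.88 TPM for all protein-coding genes. In replicate 2 the median of the 10 was 0 TPM, because 6 of them had no count there. These are bulk libraries, in which RNA from few cells and little RNA in every cell cannot be told apart.

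**Figure D1:**
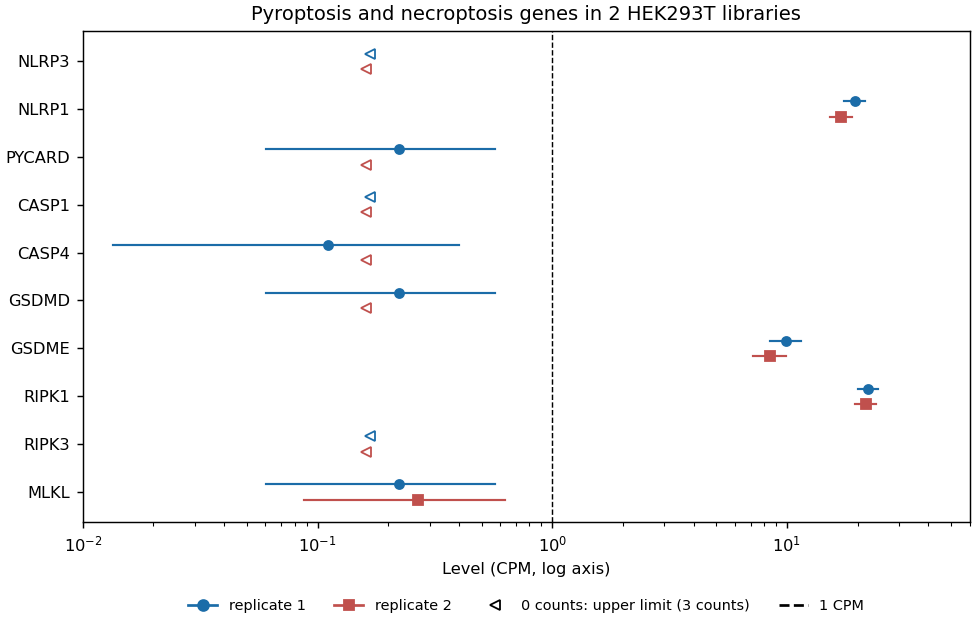
Level of each gene in CPM on a log axis, with replicate 1 as circles, replicate 2 as squares and exact 95% binomial intervals as bars. Open triangles mark 3 counts, taken as the upper limit where a library had 0 counts, and the dashed line is 1 CPM. The exact interval at 0 counts reaches further, to 0.205 CPM in replicate 1 and 0.199 CPM in replicate 2. NLRP1, GSDME and RIPK1 lie between 8.45 and 22.2 CPM, and no other gene exceeds 0.269 CPM.

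The inflammasome sensors parted. NLRP3, a cytosolic sensor that responds to potassium loss and membrane damage, lies on chromosome 1 from 247416156 to 247449108 (ENSG00000162711) and had 0 counts in both libraries. NLRP1, a sensor that is released when its own cleaved fragment is degraded, lies on chromosome 17 from 5499427 to 5619424 (ENSG00000091592). It had 350 counts in replicate 1 and 316 in replicate 2. That was 19.4 CPM with an exact 95% interval of 17.5 to 21.6, and 17.0 CPM with an interval of 15.2 to 19.0. Its 3.16 ± 0.393 TPM stood above 51.3% of protein-coding genes. With all its counts, and NLRP3 set to a floor of 3 counts per library, NLRP1 was the higher per exonic base. The ratio was 47.5-fold in replicate 1 and 42.9-fold in replicate 2. Such ratios to a floor carry no counting interval and are not strict lower bounds, since the exact limit at 0 counts lies above 3 counts. They also fall when the counts in an exon shared with another gene are taken away. Neither holds if all NLRP1 counts lie there.

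The NLRP1 value is uncertain in size, and so is its detection. Its outermost downstream exon, chr17:5499427-5499950 on the minus strand (GRCh38, 524 bases), is also an exon of ENSG00000286190, a gene on the same strand that spans 5499427 to 5501006 and had 666 counts in replicate 1 and 645 in replicate 2. The deposited counts behave as if a read were given to every gene it overlaps. There were 1007 same-strand pairs in which the exons of 1 gene enclose another gene wholly. In 633 of them the enclosed gene was counted in replicate 1, and in 0 was its count above that of the gene around it. Opposite-strand pairs gave the same pattern: of 811, the enclosed gene was counted in 519 in replicate 1, and in 0 was its count the higher. Had the reads of ENSG00000286190 lain evenly over its 1500 exonic bases, 233 of the NLRP1 counts in replicate 1 (66.5%) and 225 in replicate 2 (71.3%) would fall in the shared exon. The counts left over would be 6.52 CPM in replicate 1 and 4.88 CPM in replicate 2, both above the detection threshold. Over all exonic bases of NLRP1 they would be 1.15 TPM in replicate 1 and 0.827 TPM in replicate 2. Their ratio to the NLRP3 floor would be 15.9-fold in replicate 1 and 12.3-fold in replicate 2. The counts of ENSG00000286190 exceed those of NLRP1 in both libraries, so all NLRP1 counts could lie in the shared exon. Even coverage is an assumption and cannot show that NLRP1 is detected. The shared exon holds the 3′ end of both genes, and the cDNA was primed with oligo(dT). Whether coverage was raised there was not tested. Only 1 count per gene is given, so the share of NLRP1 reads outside that exon was not tested.

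Below the sensors, the shared adaptor and the inflammatory caspases were at or near 0. PYCARD, which joins a pyrin domain sensor to caspase-1, lies on chromosome 16 from 31201486 to 31203450 (ENSG00000103490) and had 4 counts in replicate 1 and 0 in replicate 2. The 4 counts were 0.222 CPM with an interval of 0.0605 to 0.569. They cannot be assigned to PYCARD, because 59.7% of its exonic bases lie in the opposite-strand gene PYCARD-AS1, which also had 4 counts in replicate 1 and 0 in replicate 2. CASP1, the caspase that matures interleukin-1 beta and interleukin-18, lies on chromosome 11 from 105025443 to 105035250 (ENSG00000137752) and had 0 counts in both libraries. CASP4, which binds bacterial lipopolysaccharide inside the cell and cuts GSDMD without an inflammasome sensor, lies nearby from 104942866 to 104969366 (ENSG00000196954). It had 2 counts in replicate 1, or 0.111 CPM with an interval of 0.0134 to 0.401, and 0 counts in replicate 2.

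The gasdermins, which form the pores, also parted. GSDME, which granzyme B of killer lymphocytes can cut, lies on chromosome 7 from 24698355 to 24757940 (ENSG00000105928) and had 178 counts in replicate 1 and 157 in replicate 2. It stood at 2.16 ± 0.304 TPM, above 46.4% of protein-coding genes, and shares no exonic base with another gene. GSDMD, the target of caspases 1 and 4, lies on chromosome 8 from 143553207 to 143563062 (ENSG00000104518) and had 4 counts in replicate 1 and 0 in replicate 2. Per exonic base GSDME was 26.3-fold higher than GSDMD in replicate 1, with a counting interval of 10.1 to 97.7. In replicate 2 it was at least 31-fold higher.

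Of the necroptosis genes, the initiating kinase was detected and its partners were not. RIPK1, which also serves survival signalling and apoptosis, lies on chromosome 6 from 3063824 to 3115187 (ENSG00000137275) and had 400 counts in replicate 1 and 402 in replicate 2. At 3.64 ± 0.178 TPM it was the highest of the 10 genes and stood above 53.4% of protein-coding genes. Other genes overlap 3.73% of its exonic bases. RIPK3, on chromosome 14 from 24336025 to 24340022 (ENSG00000129465), had 0 counts in both libraries. With RIPK3 set to the floor of 3 counts, RIPK1 was 35.4-fold higher per exonic base in replicate 1. The ratio was 35.5-fold in replicate 2, again without an interval. MLKL, on chromosome 16 from 74671855 to 74700960 (ENSG00000168404), had 4 counts in replicate 1 and 5 in replicate 2. It was the 1 undetected gene of the 10 with counts in both libraries, at 0.222 CPM (interval 0.0605 to 0.569) and 0.269 CPM (interval 0.0874 to 0.628). RIPK1 was 46.8-fold higher than MLKL per exonic base in replicate 1 (counting interval 18.1 to 173) and 37.6-fold higher in replicate 2 (15.98 to 116).

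Among the 3 detected genes the order by TPM was RIPK1, NLRP1 and GSDME. The ranges over the 2 libraries did not overlap, but 2 values per gene do not settle an order. RIPK1 spanned 3.52 to 3.77 TPM, NLRP1 2.88 to 3.43 TPM and GSDME 1.94 to 2.37 TPM. The exact CPM intervals of RIPK1 and NLRP1 overlapped in replicate 1, at 20.1 to 24.5 and 17.5 to 21.6. In replicate 2 they did not, at 19.6 to 23.9 and 15.2 to 19.0. The place of RIPK1 above NLRP1 is therefore uncertain. The place of NLRP1 above GSDME is uncertain too: with the shared exon taken away at even coverage, NLRP1 had a mean of 0.989 TPM, under the 2.16 TPM of GSDME. RIPK1 stayed highest. With all counts and the longest annotated transcript as the length, the order was again RIPK1, NLRP1 and GSDME, at 8.17, 5.19 and 3.40 TPM, so the values depend on the length chosen by more than they differ between libraries. The log2 ratios of replicate 2 over replicate 1 were -0.01 for RIPK1, -0.16 for NLRP1 and -0.19 for GSDME. None of the 3 passed 1 log2 in either direction. Among all 14704 genes whose mean count reached 50, 0.143% were higher and 1.92% lower in replicate 2 by that much, 2.06% in all.

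The sequence at the starts of these genes differed in its content of CpG dinucleotides, the sites of DNA methylation, which tend to cluster at the starts of widely expressed genes. RefSeq windows of 300 bases on GRCh38.p14, from 250 before to 50 after a start, were at hand for 6 of the 10 genes. They are shown for GSDME and RIPK1, which were detected, and for PYCARD and CASP4, which were not, with each CpG in capitals and each sequence read 5′ to 3′ on the strand of its gene. The windows are chr7:24757415-24757714 on the minus strand, chr6:3063717-3064016 on the plus strand, chr16:31202711-31203010 on the minus strand and chr11:104968525-104968824 on the minus strand.
GSDME: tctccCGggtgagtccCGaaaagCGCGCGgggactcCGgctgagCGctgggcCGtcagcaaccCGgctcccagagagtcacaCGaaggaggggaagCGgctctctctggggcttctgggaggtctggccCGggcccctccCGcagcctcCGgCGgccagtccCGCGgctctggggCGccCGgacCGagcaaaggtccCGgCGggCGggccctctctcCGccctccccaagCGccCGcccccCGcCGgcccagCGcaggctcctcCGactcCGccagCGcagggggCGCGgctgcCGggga
RIPK1: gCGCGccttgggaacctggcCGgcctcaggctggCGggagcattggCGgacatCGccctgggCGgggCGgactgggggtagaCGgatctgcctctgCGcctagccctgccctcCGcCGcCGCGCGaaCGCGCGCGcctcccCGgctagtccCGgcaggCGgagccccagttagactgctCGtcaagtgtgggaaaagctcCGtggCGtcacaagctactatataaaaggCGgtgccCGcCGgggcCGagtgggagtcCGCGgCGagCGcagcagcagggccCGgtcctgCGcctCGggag
PYCARD: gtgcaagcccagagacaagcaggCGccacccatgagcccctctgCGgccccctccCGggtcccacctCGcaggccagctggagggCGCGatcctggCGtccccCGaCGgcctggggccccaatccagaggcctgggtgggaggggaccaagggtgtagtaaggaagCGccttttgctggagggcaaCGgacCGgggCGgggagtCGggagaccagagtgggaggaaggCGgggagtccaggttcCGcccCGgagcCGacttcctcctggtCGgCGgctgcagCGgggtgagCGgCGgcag
CASP4: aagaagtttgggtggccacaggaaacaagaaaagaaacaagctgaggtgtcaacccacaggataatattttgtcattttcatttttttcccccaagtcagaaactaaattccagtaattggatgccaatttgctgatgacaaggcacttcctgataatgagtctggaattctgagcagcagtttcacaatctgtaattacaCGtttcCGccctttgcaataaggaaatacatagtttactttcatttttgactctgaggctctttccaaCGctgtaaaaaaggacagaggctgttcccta

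RIPK1 had 36 CpG in its window and GSDME 35, with observed over expected ratios of 0.929 and 0.79. PYCARD, though undetected, had 23 and a ratio of 0.60, at the threshold of 0.6 commonly used for a CpG island. CASP4 had 3 CpG with a ratio of 0.254, and its window was 39.7% G and C. NLRP3 had 5 CpG with a ratio of 0.23, and MLKL 9 with a ratio of 0.412. As background, 86.3% of 10213 protein-coding genes with a ratio of 0.6 or more were detected, and 30.7% of 5092 with a lower ratio. The TATAAA box, read on both strands, was found in the windows of RIPK1 and NLRP3 and in 11.5% of all 35116 windows. A match to TTCNNNGAA, the palindromic form bound by STAT factors, was found in none of the 6 windows and in 7.66% of all windows.

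The order of genes along the chromosomes gave the undetected members different surroundings. Of the 5 nearest protein-coding genes on each side, GSDMD had 10 of 10 detected, among them EEF1D, a translation elongation factor gene 16.6 kb away with 7635 counts in replicate 1 and 9021 in replicate 2. MLKL and RIPK3 had 8 of 10 each, while CASP1 and CASP4, which share most of their neighbours, had 2 of 10 each. CASP1 and CASP4 lie in a run of 9 protein-coding genes in which none was detected and 7 had 0 counts in both libraries, a stretch of 2075 kb chosen after its values were seen. The run holds CASP5, the other caspase that binds lipopolysaccharide, and CARD16, CARD17P and CARD18, relatives of caspase-1 with a CARD domain alone, all with 0 counts. It ends at DYNC2H1, with 612 and 522 counts, and MSANTD4, with 407 and 383. NLRP3 stands between 5 detected zinc finger genes on one side and 5 undetected genes, 4 of them olfactory receptors, on the other. PYCARD had 3 of 10 detected, among them BCKDK, with 791 and 876 counts, and KAT8, with 545 and 592. PYDC1, which encodes a pyrin domain protein, and the leukocyte integrin genes ITGAM, ITGAX and ITGAD were not detected there. In all, the detected members had 24 of 30 neighbours detected (80.0%) and the undetected ones 38 of 70 (54.3%), against 65.9% of all protein-coding genes. The second count holds the shared neighbours of CASP1 and CASP4 more than once, and without those genes the other 5 undetected members had 34 of 50 (68.0%), near that background.

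**Figure D2:**
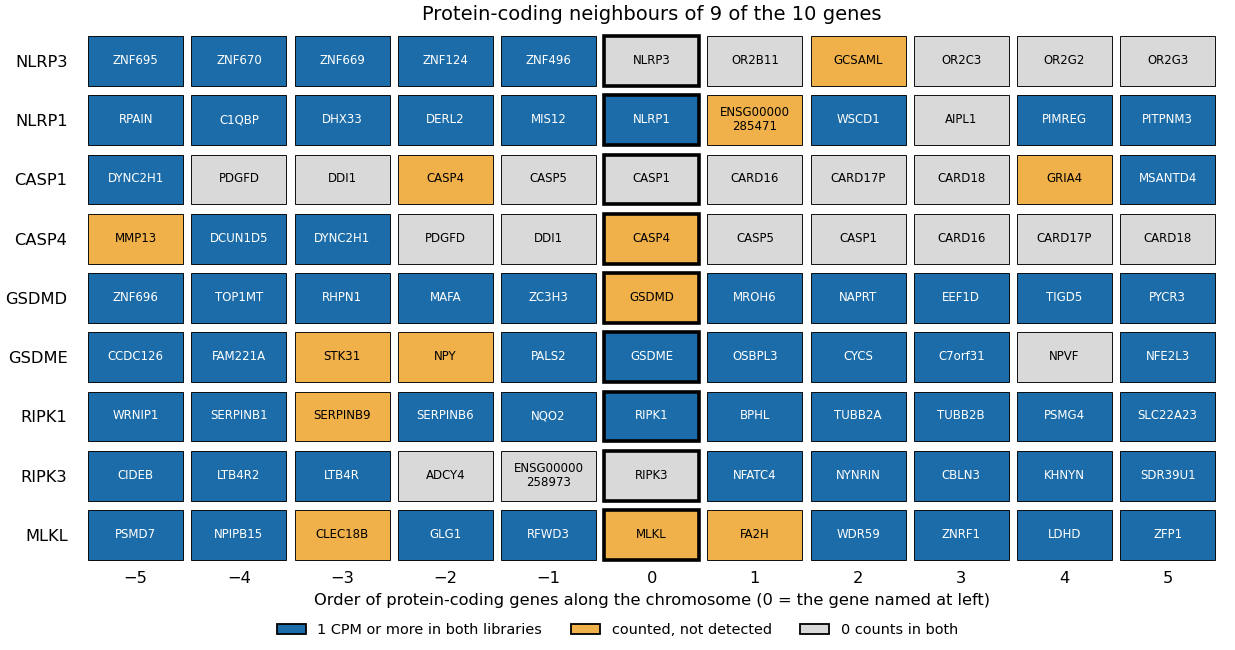
Each row shows 1 of 9 of the 10 genes, all but PYCARD (thick frame, position 0) with its 5 nearest protein-coding genes on each side, in chromosome order. Blue is 1 CPM or more in both libraries, orange is counted but not detected, and grey is 0 counts in both. The rows of CASP1 and CASP4 are mostly grey, and the row of GSDMD is blue on both sides.

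Genes that act with the 10 were described by role. Beside each count that follows, 65.9% of protein-coding genes and 27.7% of all genes were detected. For genes with 0 counts in both libraries the shares were 15.4% of protein-coding genes and 50.5% of all genes. Of 10 other inflammasome sensors, 1 was detected, CARD8, a sensor held back by the dipeptidases DPP8 and DPP9, with 358 counts in replicate 1 and 290 in replicate 2 (2.72 ± 0.544 TPM). NLRC4, the adaptor for bacterial flagellin, had 12 and 20 counts and passed 1 CPM in replicate 2 alone. NAIP had 6 and 7 counts, is uncertain because of near-identical copies, and IFI16 had 6 and 8. MEFV, NLRP2 and NLRP12 had 2 or fewer counts in each library. AIM2, NLRP6 and NLRP7 had 0.

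Of 12 cofactors and brakes of inflammasomes, 6 were detected and the other 6 had 0 counts in both. The detected ones included the NLRP3 partner NEK7 (13.6 ± 7.71 TPM) and the NLRP3 deubiquitinase BRCC3 (24.6 ± 3.54). TXNIP (15.9 ± 1.94) and DPP9 (6.48 ± 0.0081) were also among them. DPP8, at 4.74 ± 0.394 TPM, was the lowest of the 6. Both pyrin-only genes, PYDC1 and PYDC2, had 0 counts, as had CASP5 and the CARD-only genes. CASP5 and the CARD-only genes are the same genes as in the undetected run around CASP1, so they are not a separate result.

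Of 8 genes for cargo and release, 3 were detected. IL1B and IL33, which encode interleukins, and IL1RN, the interleukin-1 receptor antagonist gene, had 0 counts. IL18 had 1 and 4 counts and IL1A 0 and 3. HMGB1, a nuclear protein released on lysis, had 209 ± 57.7 TPM, NINJ1, which ruptures the membrane after pores have formed, 20.4 ± 1.12, and IL18BP, which binds interleukin-18, 7.83 ± 0.434. HMGB1, like the HSP90 genes named further on, has processed pseudogenes of near-identical sequence and is uncertain. Of the 4 other gasdermins, PJVK, a gene needed for hearing, had 2.35 ± 0.208 TPM and GSDMB 0.63 ± 0.152, while GSDMA and GSDMC had 0 counts. Of 5 other listed proteases that cut gasdermins, CASP8 was detected, at 2.60 ± 0.0575 TPM. GZMB had 4 and 1 counts, and the leukocyte proteases ELANE, CTSG and GZMA had 0.

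Upstream of RIPK1, 5 of 10 inputs were detected. The TNF receptor gene TNFRSF1A had 362 counts in replicate 1 and 434 in replicate 2 (10.9 ± 0.829 TPM), TNFRSF10B, a TRAIL receptor, 23.5 ± 0.838 TPM, the interferon receptor IFNAR1 9.68 ± 0.836 and FAS 3.40 ± 0.108. Other genes overlap 40.6% of the exonic bases of FAS, which is uncertain for that reason. TNFRSF10A, the other death-inducing TRAIL receptor, had 0 and 2 counts. TICAM1, the adaptor of TLR3 with the RIPK interaction motif, was low at 1.17 ± 0.201 TPM, with 24 and 33 counts. TLR3 had 1 and 3 counts, TNF 0 and 3, and TLR4 and ZBP1, a nucleic acid sensor that binds RIPK3, had 0.

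The genes that restrain or steer RIPK1 were detected in 16 of 17 cases, with a median of 10.8 TPM. FADD (85.6 ± 0.695 TPM), which brings in caspase-8, and SHARPIN (47.2 ± 0.761), a subunit of the linear ubiquitin ligase, were highest. FADD shares 59.2% of its exonic bases with another gene, and RNF31, also in this list, shares 72.2%. The levels of FADD and RNF31 are uncertain, and the median of the list with them. CFLAR, a brake on caspase-8, had 1.30 ± 0.0575 TPM, and BIRC3 was the 1 gene not detected, with 5 and 2 counts. All 6 MLKL cofactors were detected, from the inositol phosphate kinase IPMK (1.89 ± 1.11 TPM) through PGAM5, ITPK1 and the cochaperone CDC37 to HSP90AA1 (446 ± 51.0) and HSP90AB1 (506 ± 9.24), chaperones of MLKL and RIPK3. All 8 genes of the ESCRT machinery, which removes damaged patches of membrane, were detected, from VPS4B (8.73 ± 1.36 TPM) to CHMP4B (108 ± 6.25). Their median was 30.1 TPM. Other genes overlap 69.2% of the exonic bases of CHMP4A and 44.9% of those of VPS4A. Both levels are uncertain for that reason, and so is the median.

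**Figure D3:**
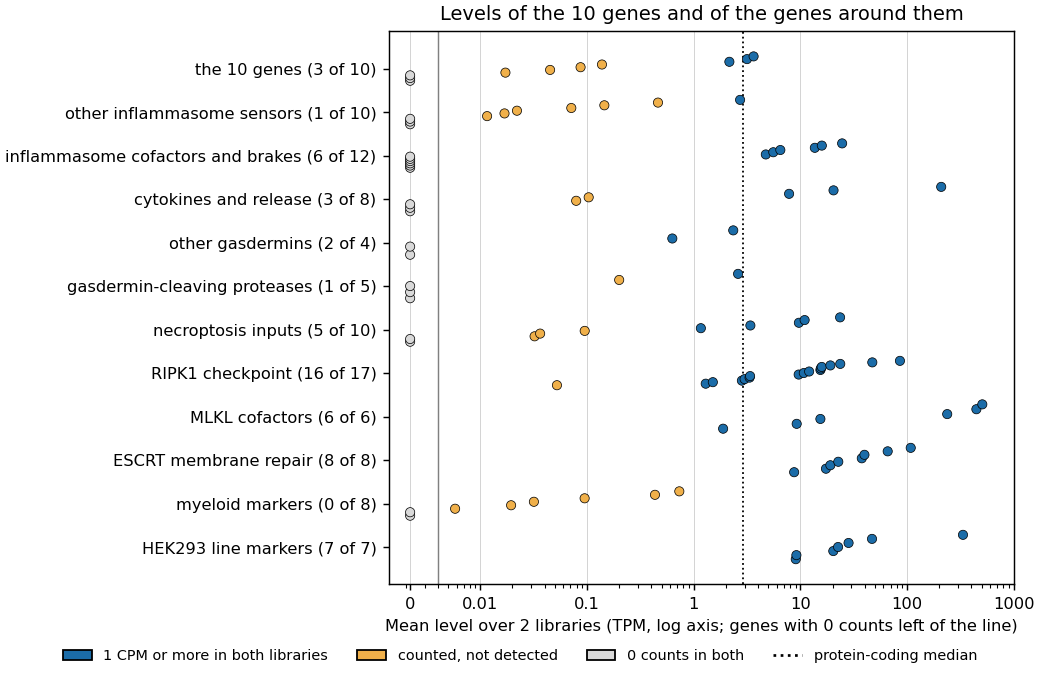
Mean TPM over the 2 libraries on a log axis for the 10 genes and for each list of related genes, with the number detected of the number listed. Blue is detected, orange is counted but not detected, grey is 0 counts, and the dotted line is the protein-coding median of 2.88 TPM. Grey points lie among the 10 genes, sensors, cofactors and brakes, cytokines, other gasdermins, proteases, necroptosis inputs and myeloid markers. The ESCRT, MLKL cofactor and HEK293 marker lists are blue throughout.

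Read by route, the 8 listed death or release routes each pass through GSDMD or MLKL. Neither gene was detected, so none of these routes could have every component detected. None of the 8 ends in GSDME, the pore former that was detected, with 178 and 157 counts. The NLRP3 route lacked 4 of 5 components, all but NEK7. Those from NLRP1 and CARD8 lacked all steps from CASP1 down, and PYCARD in the case of NLRP1. The noncanonical route lacked CASP4 and GSDMD and kept NINJ1. TNF necroptosis had its receptor and RIPK1 and lacked RIPK3 and MLKL, the TLR3 route lacked TLR3 as well, and the ZBP1 route had 0 of 3 components. Interleukin release had 0 of 4, with CASP1 and IL1B at 0 counts. Components called missing here are below the detection threshold in RNA of unstimulated cells. Protein was not measured.

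**Figure D4:**
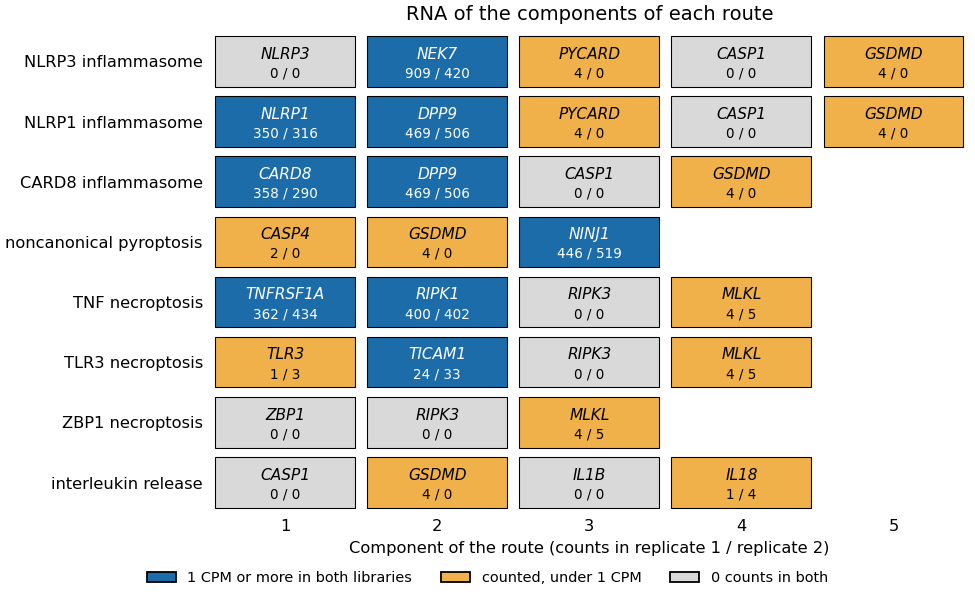
Components of each of 8 routes, with counts in replicate 1 and replicate 2 under each gene name. Blue is 1 CPM or more in both libraries, orange is counted but under 1 CPM, and grey is 0 counts in both. Each row holds GSDMD or MLKL in orange.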

How the data were processed

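RNA from untreated HEK293T cells was reverse transcribed with an oligo(dT) primer, sheared as cDNA and made into libraries by single-strand ligation, per the labels' protocols, so RNAs without a poly(A) tail are under-represented. The authors deposited whole-number counts per Ensembl gene, 1 library per file, with no normalisation, per the file headers. Per the submitters' processing notes, the tools included featureCounts 2.0.3, Trim Galore 0.6.7 and bcl2fastq 2.17, on build GRCh38. Aligner, annotation release, strandedness and treatment of overlapping genes: not given in the sources used here.

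Of 60664 gene IDs, 60463 matched a symbol, and types came from GENCODE 29, which holds 58396 of them. CPM was computed from totals and TPM from the deposited merged exon lengths (Python 3.11.15, SciPy 1.17.1). CPM intervals are exact 95% binomial (Clopper-Pearson). Ratios between libraries used TMM factors and a prior count of 2 (edgeR 4.0.16), with DESeq2 1.42.0 size factors as an alternative, and this step was checked on simulated counts. Promoter sequences are from RefSeq (GRCh38.p14). With 1 group there was no contrast and no test. The 10 genes and the gene lists were chosen with earlier results of these data known. Named were the 10 genes, all route components, all members of lists of up to 10 genes and the 2 highest and 2 lowest of longer ones, overlap partners and neighbours. Some genes, a route and the drawn neighbours of PYCARD are not reported here. Genes beyond that rule were chosen after their values were seen.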

Additional observations from a re-analysis of the deposited data

How the results depend on the processing

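The 3 detected genes remained 3 of 10 at 0.5 or 2 CPM, at 1 CPM in either library, at 1 TPM, at 10 counts, with either library alone, and with shared bases taken away at even coverage, which was chosen after seeing the data. Leaving out PYCARD, the gene that shares 25% or more of its exonic bases, they were 3 of 9. Even coverage cannot show that NLRP1 stays detected, because all its counts could lie in its shared exon. Genes with 0 counts numbered 3 to 6 with 1 library left out. The median of the 10 spanned 0 to 0.0854 TPM with 1 library left out and was 3.16 TPM for the detected genes alone. Other sensors detected became 2 (NLRC4 added) at 0.5 CPM, at 1 CPM in either library and at 10 counts, and were 1 to 2 with 1 library left out. Other gasdermins became 1 at 2 CPM and at 1 TPM, and the TLR3 route 0 at 2 CPM. The other 112 of 119 list and route counts stayed within 1.5 times. Genes 1 log2 or more higher and lower in replicate 2 were 21 and 282, and became 214 and 562 at a mean count of 10, 2 and 154 at 200, and 1172 and 2257 with no filter, where 3 of the 10 genes passed against 0 before. These 3, PYCARD, CASP4 and GSDMD, had 4 or fewer counts. No paired analysis was possible because the labels give 1 group.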

Other observations

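In all, 2 genes of the surrounding lists, out of 46 with a mean count of 50 or more, passed 1 log2 between the libraries. NEK7 had 909 counts in replicate 1 and 420 in replicate 2 (log2 ratio of replicate 2 over replicate 1 -1.12), and IPMK had 142 and 63 (-1.16). Both were lower in replicate 2, as were 1.92% of all genes at that mean count, against 0.143% that were higher. A ratio of single libraries has no replicate check.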
